A study of Mus musculus with 4 samples.

Results

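Semaphorins are guidance ligands that steer growing axons, and plexins are the receptors that carry their signal into the growth cone. Class 3 semaphorins are secreted and bind neuropilins, which act together with plexins A, whereas Sema7a is held to the membrane by a lipid anchor and binds Plxnc1 and integrins. In olfactory sensory neurons these molecules are known for sorting axons on their way to the olfactory bulb: Nrp1, Sema3a and Plxna1 are graded between axons under the cAMP signal of the odorant receptor, Sema3f is released by early axons to repel later ones that carry Nrp2, and Sema7a on axons meets Plxnc1 on dendrites in the bulb. The genes described here are 8 members of this system, the ligands Sema7a, Sema3a and Sema3f, the neuropilin Nrp1, and the plexins Plxna1, Plxna3, Plxna4 and Plxnc1. They are a list of symbols proposed with results of these data known. All 8 were found among the 28168 loci of the authors' deposited table, 7 of them among the 14841 loci that the authors tested.

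RNA was sequenced from mature olfactory sensory neurons, which had been sorted by fluorescence from papain-dissociated olfactory epithelium of mice, in 4 libraries. The Nd1 group has 2 libraries, both of genotype Nd1+/-, OMP-IRES-tTA+/- and OMP-IRES-GFP+/-, from mice 212 days (replicate 1) and 87 days old (replicate 2). The control group has 2 libraries of the same ages. Control replicate 1 was Nd1+/- and OMP-IRES-tTA-/-, control replicate 2 was Nd1-/- and OMP-IRES-tTA+/-, and both were OMP-IRES-GFP+/-, so that the reporter was shared by all 4 libraries. tTA is a transcriptional activator placed at Omp, a gene of mature olfactory neurons, and it was absent from control replicate 1 only. Control replicate 2 had the same Omp alleles as both Nd1 libraries and lacked Nd1 itself. The series title says that these mice express double-stranded RNA encoded in the genome, its design text speaks of neurodegeneration, and the head of the table calls the controls littermates. How many mice entered a library is not stated.

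The table gives 1 FPKM value per group for each locus, the authors' pooled value, and none per library. FPKM counts sequenced fragments scaled to transcript length and to the mapped fragments of the group, so levels can be set side by side between genes. No spread between libraries can be given, and the depth is unknown. The error used here is the standard error (SE) of the log2 ratio that the authors' own test statistic implies, with a 95% interval from the normal distribution on which their p-values rest. Whether it holds the spread between animals is not given in the sources used here. "Rose" and "fell" are used only where the authors' q-value was under 0.05. Less RNA of a gene per neuron and fewer neurons that express it cannot be told apart in such pooled cells, and RNA of dissociated cells says nothing of the protein on the axon.

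Upstream sequence is shown for the members that passed the test and have an entry in the RefSeq promoter table (build GRCm38.p6), 3 that fell and 1 that rose. The table holds 5 of the 8 members, the fifth being Plxnc1, which was not tested. Each stretch is the 250 bases before the start listed by RefSeq, on the plus strand, 5′ to 3′, and overlaps no exon of the GENCODE M21 annotation of that build. Those of Sema7a (chr9:57939862-57940111) and Plxna3 (chrX:74328816-74329065) lie outside annotated genes, and those of Nrp1 (chr8:128358823-128359072) and Sema3a (chr5:13396534-13396783) lie in introns of the gene itself. Capitals mark GGGCGG or its complement CCGCCC, the core of a GC box.
Sema7a: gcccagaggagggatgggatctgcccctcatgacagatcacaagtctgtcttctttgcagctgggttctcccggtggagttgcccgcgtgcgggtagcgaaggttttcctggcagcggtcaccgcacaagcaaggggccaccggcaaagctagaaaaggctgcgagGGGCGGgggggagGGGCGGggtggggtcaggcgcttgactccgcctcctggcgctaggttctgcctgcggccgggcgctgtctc
Nrp1: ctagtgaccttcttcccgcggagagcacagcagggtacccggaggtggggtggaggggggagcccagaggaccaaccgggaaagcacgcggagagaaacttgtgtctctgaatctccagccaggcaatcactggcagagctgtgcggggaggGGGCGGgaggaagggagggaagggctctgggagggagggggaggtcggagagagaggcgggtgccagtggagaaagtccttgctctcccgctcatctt
Plxna3: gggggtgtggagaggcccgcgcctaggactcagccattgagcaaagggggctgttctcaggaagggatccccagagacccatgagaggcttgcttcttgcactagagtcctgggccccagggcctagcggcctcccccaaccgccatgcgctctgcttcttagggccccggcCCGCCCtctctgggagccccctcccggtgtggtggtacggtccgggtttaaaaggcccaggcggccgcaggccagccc
Sema3a: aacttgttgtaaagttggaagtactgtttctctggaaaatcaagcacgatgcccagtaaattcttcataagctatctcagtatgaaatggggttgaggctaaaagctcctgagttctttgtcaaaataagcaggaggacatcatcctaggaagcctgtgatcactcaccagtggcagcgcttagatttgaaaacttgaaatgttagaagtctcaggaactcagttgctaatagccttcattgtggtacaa

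The share of G and C in the window was 66.4% for Sema7a, 64.4% for Nrp1, 68.0% for Plxna3 and 40.8% for Sema3a. It was 68.8% for Plxnc1, the untested member, whose window is not printed, beside a median of 52.4% and quartiles of 45.2% and 61.2% over 32851 RefSeq promoters. GGGCGG was found, on either strand, 2 times before Sema7a, 1 time before Nrp1, 1 time before Plxna3 and 4 times before Plxnc1, and not before Sema3a. The 3 members that fell were thus higher in both measures than Sema3a, the only member with a window that rose. With 1 such window it cannot be said whether either measure goes with the direction. Plxnc1, the highest in both, has no call. Of all promoters, 32.7% hold GGGCGG in a window of that length. None of the 5 windows holds the cAMP response element TGACGTCA (1.55% of promoters), its shorter form TGACG (17.8%), the Ebf site of TCCC and GGGA with 2 free bases between them (0.779%) or the homeodomain core TAATTA (4.84%). TGACG is part of the full element. These are descriptions of letters in a short window and not of binding.

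Of the 7 tested members, 5 fell and 2 rose in Nd1. The ligand Sema7a lost most of its RNA and Nrp1 and all the tested plexins among the members fell, while the secreted ligands Sema3a and Sema3f rose. Among all tested loci 34.4% were called, 15.1% higher and 19.2% lower, and 30.3% were called among tested loci whose symbol is not that of an odorant receptor. Since the members were proposed with results known, the share of them that was called is a description.

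**Figure D1:**
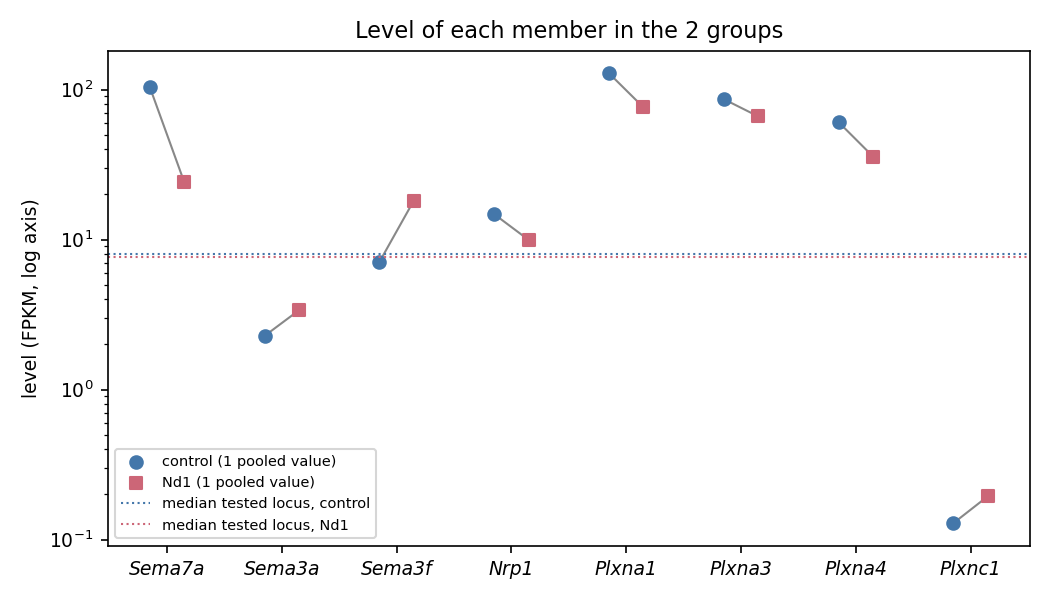
Level of each member in FPKM (log axis) in control (blue circles) and Nd1 (red squares), 1 pooled value per group and no error bars because the table holds none; dotted lines mark the median tested locus (7.97 in control and 7.63 in Nd1). Sema7a drops from the level of the plexins A to below all 3 of them, Sema3f crosses the median locus, and Plxnc1 lies far below the rest in both groups.

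Sema7a, the membrane-anchored ligand, stood at 104 FPKM in control and 24.3 FPKM in Nd1 (mm9 chr9:57787942-57810672). The Nd1 level was thus 23.2% of that in control, a 4.30-fold fall with a 95% interval of 3.59 to 5.16. The log2 ratio was -2.10 (SE 0.13), and q is listed as 0 in the authors' deposited table. Among tested loci outside the odorant receptors, 0.68% had a lower log2 ratio. In control Sema7a lay above 96.9% of all tested loci in level, and in Nd1 above 79.2%.

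Sema3f, a secreted class 3 ligand that signals mainly through Nrp2, moved the other way. It stood at 7.08 FPKM in control and 18.2 FPKM in Nd1 (mm9 chr9:107583833-107612806), a 2.57-fold rise with an interval of 2.45 to 2.70. Its log2 ratio was 1.36 (SE 0.036), and q is listed as 0 in the authors' deposited table. The SE is small: 0.64% of tested loci had a smaller one and the median was 0.19. In control Sema3f lay above 47.0% of tested loci in level and in Nd1 above 72.0%.

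Sema3a, the class 3 ligand of Nrp1, was the least abundant of the tested members. It rose from 2.28 FPKM in control to 3.38 FPKM in Nd1 (mm9 chr5:13125414-13602571), with a log2 ratio of 0.57 (SE 0.19). The fold was 1.48 with an interval of 1.14 to 1.93, and q was 0.0117 in the authors' deposited table. This is the weakest of the 7 calls. At q under 0.01, where 27.2% of tested loci are called, Sema3a did not pass and the other 6 did.

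Nrp1, the neuropilin that binds Sema3a, fell while that ligand rose. It stood at 14.8 FPKM in control and 9.96 FPKM in Nd1 (mm9 chr8:130882973-131029375), a 1.49-fold fall with an interval of 1.24 to 1.78 and q of 9.97e-05 in the authors' deposited table. The log2 ratio was -0.57 (SE 0.13), nearly the size of the Sema3a difference with the opposite sign. The ratio of Nrp1 to Sema3a in FPKM was 6.49 in control and 2.94 in Nd1. A second locus with the symbol Nrp1 and the same bounds was listed at 0.099 FPKM in control and 0 in Nd1, was not tested, and is left out here. Endothelial cells are another known source of Nrp1. Of the 8 endothelial and mural markers, Cdh5 (0.034 FPKM in control and 0.039 in Nd1), Kdr (0.039 and 0.034 FPKM), Tek and Emcn were near 0 in both groups. Pecam1, which is also endothelial, rose from 1.49 to 2.68 FPKM, whereas the endothelial Cldn5 (0.74 FPKM in control and 0.35 in Nd1) did not pass. The mural markers Rgs5 (7.65 to 4.12 FPKM) and Pdgfrb (0.88 to 0.25 FPKM) fell. The part of such cells in the Nrp1 value was not tested.

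Plxna1, the most abundant member in both groups, stood at 129 FPKM in control and 76.2 FPKM in Nd1 (mm9 chr6:89266308-89312607). Plexins A are the signalling partners of neuropilins, and Plxna1 is graded against Nrp1 between olfactory axons. Plxna1 fell 1.69-fold with an interval of 1.36 to 2.10, a log2 ratio of -0.75 (SE 0.16) and q of 1.52e-05 in the authors' deposited table. Both Nrp1 and Plxna1 were thus lower, and their ratio in FPKM, Plxna1 over Nrp1, was 8.70 in control and 7.65 in Nd1.

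Plxna4, another partner of neuropilins, changed by nearly the same factor as Plxna1. It went from 60.7 FPKM in control to 35.8 FPKM in Nd1 (mm9 chr6:32094559-32538192), a 1.70-fold fall with an interval of 1.41 to 2.04. The log2 ratio was -0.76 (SE 0.13) and q was 1.44e-07 in the authors' deposited table. The FPKM ratio of Plxna1 to Plxna4 was 2.12 in control and 2.13 in Nd1. The transcript B230378P21Rik has the same bounds as Plxna4 and was listed at 0.028 and 0.041 FPKM.

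Plxna3, the X-linked plexin A, fell least of the members. It stood at 86.4 FPKM in control and 66.3 FPKM in Nd1 (mm9 chrX:71574405-71590028). The fall was 1.303-fold with an interval of 1.21 to 1.41, a log2 ratio of -0.38 (SE 0.056) and q of 1.63e-10 in the authors' deposited table. Plxna1 exceeded Plxna3 in FPKM 1.49-fold in control and 1.15-fold in Nd1. Whether the plexins A differed from each other in their log2 ratios was not tested.

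Plxnc1, the plexin that binds Sema7a, was close to 0 in these neurons. It was listed at 0.13 FPKM in control and 0.19 FPKM in Nd1 (mm9 chr10:94253612-94407212), above 1.69% and 3.50% of tested loci. The authors did not test it. Its log2 ratio of 0.60 had a 95% interval from -0.16 to 1.36 and so included 0. Plxnc1 is also known in myeloid cells. Of the 8 myeloid markers found, Csf1r (0.11 FPKM in control and 0.10 in Nd1) and Emr1 (0.070 and 0.10 FPKM) were as low as Plxnc1 and not tested. Others fell, namely S100a8 from 9.02 to 1.86 FPKM, S100a9 from 10.1 to 1.92 FPKM and Ptprc from 0.49 to 0.047 FPKM. Aif1 (0.24 FPKM in control and 0.47 in Nd1) did not pass. Itgam (0.25 and 0.13 FPKM) and Cd68 (0.20 FPKM in both groups) were not tested. The part of such cells in the Plxnc1 value was not tested.

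**Figure D2:**
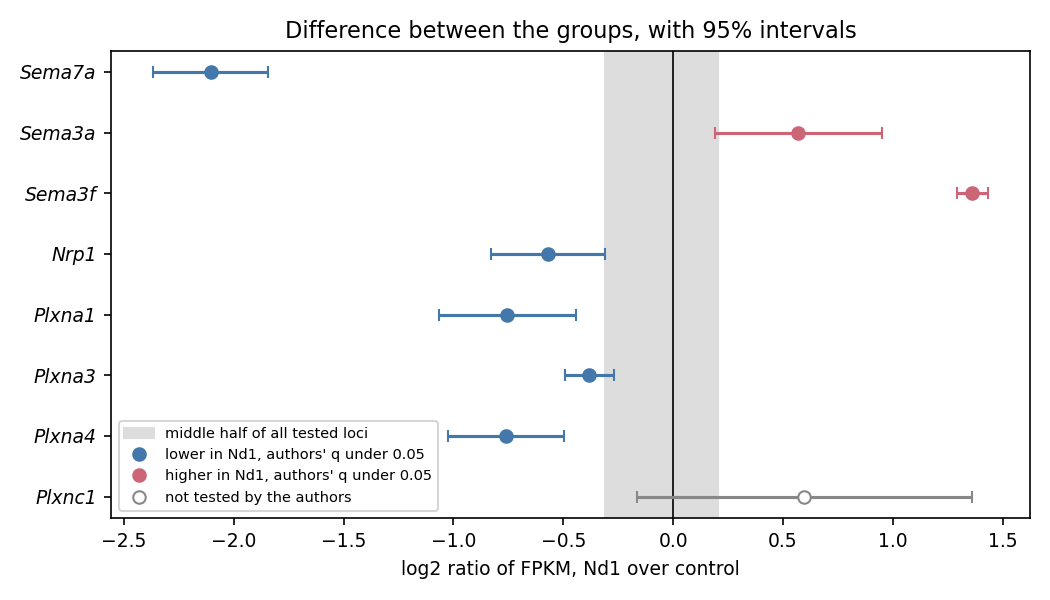
Log2 ratio of FPKM, Nd1 over control, for each member (x axis), with the 95% interval implied by the authors' statistic as bars; the grey band runs from the lower to the upper quartile of all tested loci (-0.31 to 0.20). Sema7a lies farthest to the left and Sema3f farthest to the right, and the interval of the untested Plxnc1 crosses 0.

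The order of the levels changed in the middle and not at the ends. In control it ran from Plxna1 through Sema7a, Plxna3, Plxna4, Nrp1, Sema3f and Sema3a to Plxnc1. In Nd1 it ran from Plxna1 through Plxna3, Plxna4, Sema7a, Sema3f, Nrp1 and Sema3a to Plxnc1. Sema7a moved from the second place to the fourth, and Sema3f and Nrp1 changed places. The pooled values carry no spread, so it cannot be said which neighbours in these orders differ beyond it.

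Across all 20 semaphorin genes the ligand composition shifted away from Sema7a. Of the 16 tested, 4 rose, 5 fell and 7 did not pass, with a median log2 ratio of 0.025 beside -0.068 for all tested loci. Sema7a made up 45.6% of the summed semaphorin FPKM in control and 13.0% in Nd1. The sum fell from 229 to 187 FPKM, but without Sema7a it was 124 in control and 162 in Nd1. The class 3 genes summed to 19.8 and 29.8 FPKM, and the class 4 genes, which are membrane proteins, to 77.8 and 107 FPKM. The higher Nd1 sums of class 4 and of the semaphorins without Sema7a rested on Sema4g: without it class 4 went from 67.2 to 60.7 FPKM, and all semaphorins other than it and Sema7a from 114 to 116 FPKM.

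Beside Sema3a and Sema3f, the semaphorins that rose were Sema4g and Sema6d. Sema4g, a membrane-spanning class 4 semaphorin, went from 10.6 to 46.2 FPKM, 4.37-fold, and was the most abundant semaphorin in Nd1, where it made up 24.7% of the sum beside 4.62% in control. Sema6d, a membrane-spanning ligand of plexins A, rose from 1.26 to 1.99 FPKM. The falls beside Sema7a were those of Sema3b (1.35 to 0.70 FPKM), Sema3d (0.70 to 0.21 FPKM), Sema4b (9.75 to 7.80 FPKM) and Sema6a (15.6 to 12.9 FPKM). The class 3 genes thus did not move as a body, since Sema3a and Sema3f rose, Sema3b and Sema3d fell, Sema3e (8.19 and 7.21 FPKM) did not pass and Sema3c and Sema3g were not tested.

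Most calls among the receptors were falls, beside 19.2% lower and 15.1% higher among all tested loci. Of 10 tested plexins and neuropilins 7 fell, 2 rose and 1 did not pass, with a median log2 ratio of -0.52. The falls include the members Nrp1, Plxna1, Plxna3 and Plxna4, proposed with results known, so the count and median partly restate that choice. The plexins A summed to 277 FPKM in control and 179 in Nd1, of which the members alone made up 276 and 178. The plexins B summed to 123 and 128 FPKM. Beyond the members, the falls were those of Plxna2 (1.07 to 0.35 FPKM), Plxnb3 (6.20 to 4.47 FPKM) and the vascular semaphorin receptor Plxnd1 (4.23 to 2.79 FPKM). Plxnb1, a receptor of class 4 semaphorins, rose from 22.1 to 29.9 FPKM, and Plxnb2 stood at 94.4 and 93.7 FPKM and did not pass.

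Nrp2, the neuropilin that binds Sema3f, rose from 37.6 to 48.5 FPKM, 1.29-fold, with q of 5.1e-07 in the authors' deposited table. Ligand and receptor were therefore both higher in the pair of Sema3f and Nrp2, whereas the ligand was higher and the receptor lower in that of Sema3a and Nrp1. The share of Nrp1 in the FPKM of both neuropilins was 28.2% in control and 17.0% in Nd1.

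**Figure D3:**
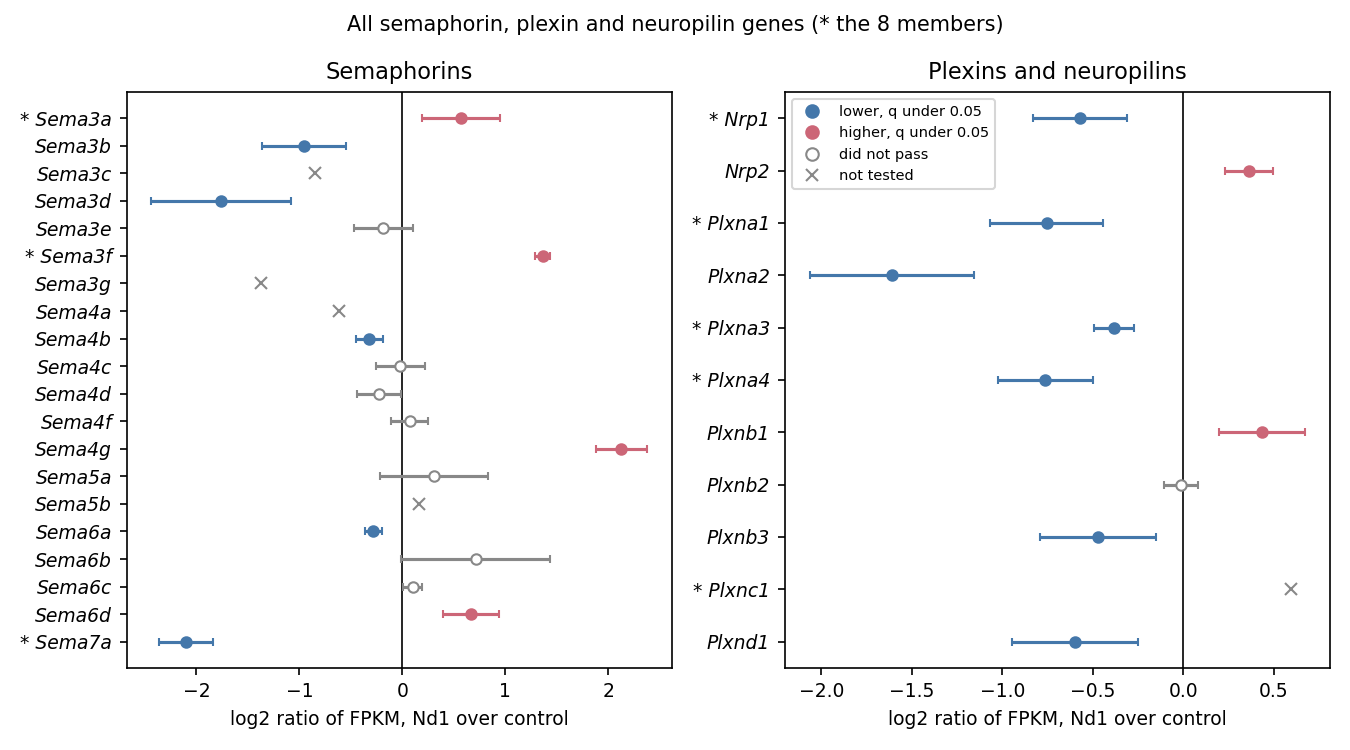
Log2 ratio of FPKM, Nd1 over control (x axis), for every semaphorin (left) and every plexin and neuropilin (right), with 95% intervals from the authors' statistic; filled points passed the authors' test, open points did not, crosses were not tested, and asterisks mark the 8 members. On the right 7 of 10 tested receptors lie to the left of 0 as filled points, with Nrp2 and Plxnb1 filled on the other side.

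Signalling genes downstream of plexins were called more often upward than downward. Of 22 tested, 7 rose, 3 fell and 12 did not pass, with a median log2 ratio of 0.094. Dpysl3, a collapsin response mediator that is also an immature neuron marker, rose from 8.40 to 27.0 FPKM. The kinases Fyn (3.50 to 6.04 FPKM) and Pak1 (31.0 to 49.95 FPKM) rose, and Farp2, an exchange factor that binds plexins A, dropped from 5.76 to 3.80 FPKM. Among co-receptors and integrins 2 of 7 tested rose and 2 fell, with a median of 0.013. The adhesion molecule Chl1, a co-receptor of Sema3a, rose from 1.31 to 6.97 FPKM. Itgb1, the beta chain of the integrins that bind Sema7a, rose from 13.3 to 23.3 FPKM. Met (1.37 to 0.50 FPKM), a receptor kinase linked to plexins B, and Ptk7 (0.84 to 0.44 FPKM) fell, the latter named after its value was seen.

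Other guidance systems of olfactory axons gave calls in both directions, with 7 of 18 tested lower, 4 higher and 7 not passing. Their median log2 ratio was -0.51, but -0.24 with a pseudocount of 1 or after quantile normalization. Unc5b, a netrin receptor, fell from 61.7 to 20.1 FPKM, the ephrin receptor Epha5 from 45.5 to 19.5, and the adhesion molecules Kirrel3 from 37.8 to 16.4 and Kirrel2 from 488 to 257 FPKM. The rises, named after their values were seen, were those of the Slit receptor Robo1 (16.3 to 23.9 FPKM), Efna5 (41.0 to 58.5 FPKM), Ephb2 (0.18 to 0.48 FPKM) and Ncam2 (51.9 to 68.5 FPKM). Genes of the cAMP signal gave 4 falls and 3 rises among 10 tested, with a median of -0.11, which was between -0.11 and -0.0048 under the scalings tried. The phosphodiesterases Pde1c (243 to 118 FPKM) and Pde4a (284 to 166 FPKM), the cyclase Adcy3 (888 to 496 FPKM) and the channel subunit Cnga2 (860 to 486 FPKM) fell. The rises, likewise named after the fact, were those of Gnas (15.7 to 24.1 FPKM), Prkar1a (113 to 154 FPKM) and Prkacb (70.3 to 78.7 FPKM).

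**Figure D4:**
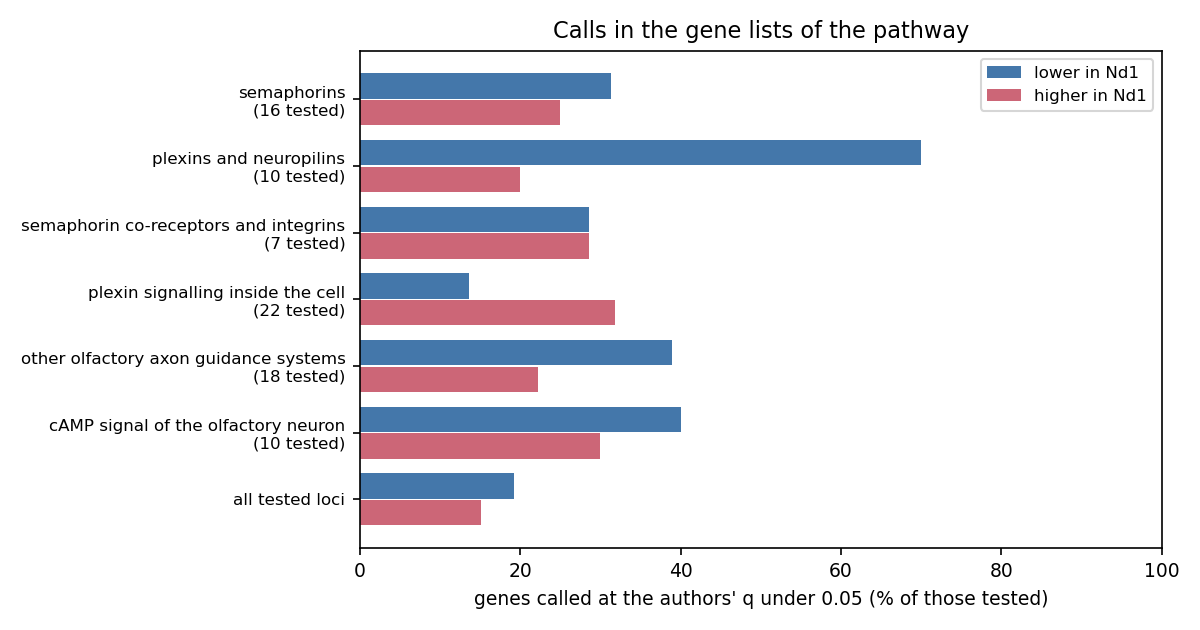
Percent of the tested genes of each list that the authors called lower (blue) or higher (red) in Nd1 at q under 0.05 (x axis), with all tested loci at the bottom (19.2% lower and 15.1% higher). The plexins and neuropilins have the longest bar to the lower side (7 of 10), and the plexin signalling genes are the list with more rises (7) than falls (3). The lists of semaphorins and of plexins and neuropilins include the members, which were proposed with results known.

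Markers of several cell types were called in the same comparison, in which 34.4% of all tested loci were called, 19.2% lower and 15.1% higher. Mature neuron markers, led by Omp, Stoml3 and Gng13, were abundant in both groups and fell in 7 of 8 tested, their sum going from 13849 to 5817 FPKM. Their median log2 ratio was -0.80, beside -2.10 for Sema7a, -0.76 for Plxna4, -0.75 for Plxna1, -0.57 for Nrp1, -0.38 for Plxna3, 0.57 for Sema3a and 1.36 for Sema3f. Of 9 tested immature neuron markers, 7 rose, with Tubb3 and Stmn2 the most abundant of these, and they summed to 446 and 810 FPKM. Hdac9, the third most abundant of that list, fell from 52.3 to 32.3 FPKM. Of 8 sustentacular markers, 3 fell (Krt18, Krt8 and Sox2) and 5 did not pass, among them the most abundant, Sult1d1, Cyp2a5 and Cyp2g1. The sustentacular markers summed to 329 and 295 FPKM, of which Sult1d1 alone made up 254 and 234 FPKM. Basal cell markers (Krt5, Krt14 and Trp63 led) fell in 4 of 4 tested, summing to 13.2 and 6.90 FPKM. Endothelial and mural markers (Rgs5, Pecam1 and Pdgfrb) gave 1 rise and 2 falls in 4 tested and summed to 11.0 and 7.64 FPKM. Of 4 tested myeloid markers, 3 fell (S100a9, S100a8 and Ptprc) and Aif1 did not pass. The myeloid markers summed to 20.5 and 4.84 FPKM, most of it from S100a9 and S100a8. Lymphocyte markers, of which 2 were listed at 0 in each group, rose in 1 of 2 tested, Gzma, and summed to 0.86 and 5.92 FPKM. Nkg7 (0.38 FPKM in control and 0.16 in Nd1) did not pass, and Cd79a (0.15 and 0.045 FPKM) was not tested. The part of a changed mix of cells in the members' values was not tested.

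Under the scalings tried, the sizes of the members' log2 ratios moved and none changed sign. Odorant receptors summed to 8891 FPKM in control and 1691 in Nd1, and setting the sum of all other loci equal raised every Nd1 value 1.07-fold and moved the median log2 ratio from -0.069 to 0.035 over tested loci that averaged 0.5 FPKM or more. The medians of the 6 pathway lists kept their signs, and that of plexins and neuropilins lay between -0.52 and -0.40. The medians of the other lists moved by more than 1.5 times: that of semaphorins lay between 0.021 and 0.13, that of co-receptors and integrins between 0.013 and 0.12, and that of plexin signalling between 0.091 and 0.20. The medians of the other guidance systems and of the cAMP genes moved as given above. Under 5 alternatives the log2 ratio of Sema7a ranged from -2.10 to -2.001, that of Sema3f from 1.25 to 1.47 and that of Plxna3 from -0.38 to -0.28. Adjusting the authors' p-values again over the 12956 tested loci that reached 1 FPKM in either group, of which 35.6% were then called and 35.4% had been called before, left all 7 members called.

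**Figure D5:**
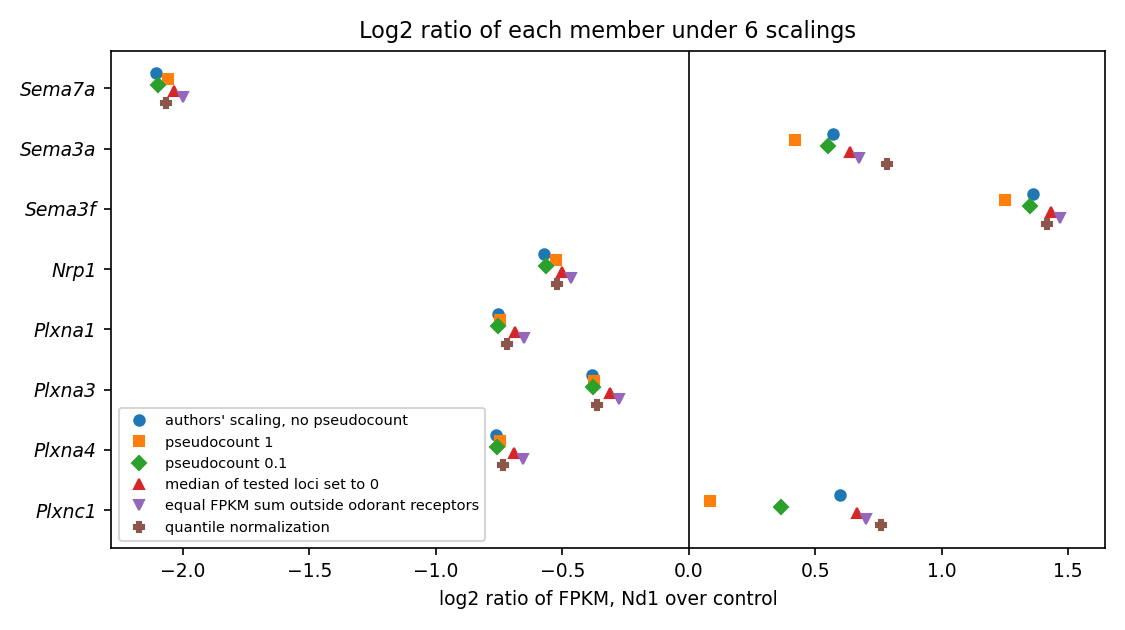
Log2 ratio of FPKM, Nd1 over control (x axis), of each member as deposited and under 5 alternatives of pseudocount and scaling (symbols), without error bars. All symbols of a member lie on the same side of 0; those of the near-absent Plxnc1 spread most, from 0.082 to 0.76.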

How the data were processed

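Per the submitters' processing notes, Bowtie, Cuffdiff 1.3.0 and the build mm9 were used, while annotation and filters are not stated. The deposited file has 1 pooled FPKM value for each group and 0 columns per library. The log2 fold change, the test statistic (a score), p-values and q-values beside it are the authors', per the file headers. Its other entries, such as placeholders where a group is at 0, were not used. Locus bounds are those of the file, with 1 added to each start.

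Log2 ratios were taken from FPKM with no pseudocount, and an SE as the log2 ratio over the deposited statistic. In 99.7% of 13872 tested loci with a p-value above 1e-15, that p-value is the two-sided normal p of the statistic within 1%. Calls are the authors' (Cuffdiff, q under 0.05). Where a symbol had several loci, that of highest mean FPKM stood for it. The calculation of intervals and readjusted p-values was checked with simulated loci, which cannot show whether the intervals hold the spread between animals. Python 3.11.15 was used with pandas 2.3.3, numpy 2.4.6 and scipy 1.17.1.

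The members and gene lists were chosen with earlier results of these data known. All members were named, with every called semaphorin, plexin and neuropilin, up to 4 called genes reaching 1 FPKM of each other pathway list, and the 3 most abundant of each marker list. Some further markers were named after their values were seen. The result of 1 further marker list is not reported here. GGGCGG joined the motifs after the sequences were seen. Joined loci, such as that of Itga1 and Pelo, were left out of the lists.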

Additional observations from a re-analysis of the deposited data

How the results depend on the processing

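At q under 0.01 the members called higher were 1 in place of 2, since Sema3a (q 0.0117 in the authors' deposited table) no longer passed. With loci that reached 1 FPKM in either group, the co-receptors and integrins called lower were 1 in place of 2. The other 40 of 42 recomputed counts stayed within 1.5 times. Of 40 recomputed log2 ratios of the members 0 changed sign, 32 moved by less than 1 SE and 8 by more; 4 of the 8 are those of Sema3f, whose SE is small. Leaving out each replicate in turn was not run, since each group has a single pooled value. No paired analysis was possible because the table has no value per library. The unknown depth limits what can be said of low genes such as Plxnc1.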

Other observations

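Some genes of the pathway carry no call because the authors' test failed for them. Crmp1, a collapsin response mediator of Sema3a signalling, was listed at 42.6 FPKM in control and 59.3 FPKM in Nd1. The Slit receptor Robo2 was listed at 62.3 and 56.8 FPKM and the ephrin receptor Epha7 at 17.1 and 11.1 FPKM. Arhgef12, an exchange factor that binds plexins B, was listed at 43.7 and 44.0 FPKM, and Arhgef11 at 21.2 and 20.5 FPKM. Gnal, which is among the cAMP genes and the mature neuron markers, was listed at 1672 FPKM in control and 924 in Nd1. Its log2 ratio of -0.86 is not part of the median of either list. Itga1, the alpha chain of an integrin that binds Sema7a, is joined in the table with Pelo, and the joined locus stood at 6.69 and 6.17 FPKM and did not pass. A second locus of Plxnb1 was listed at 0.67 and 1.79 FPKM and was called higher, as the main locus was. A second locus of Sema3b was listed at 0.94 FPKM in control and 0.28 in Nd1 and did not pass, unlike the main locus.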
